A study of Mus musculus with 5 samples.

Results

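Cma1, Mcpt4 and Mpo are 3 genes for enzymes that blood-derived cells keep in their granules, and all 3 had values among the 4743 genes listed for each library. They were chosen by gene symbol, with their difference between the genotypes already known, so their own values are given as a description and without a test. RNA sequencing covered 3 Noggin-deficient and 2 wild type samples of forelimb muscle from E15.5 mouse embryos, all of the strain C57BL/6. Noggin is a secreted protein that holds bone morphogenetic proteins away from their receptors, and the series title asks how these proteins and the mechanical surroundings shape the muscle lineage. The labels do not name the Noggin allele, and do not say whether a sample was 1 embryo or a pool, so the spread between samples may be technical.

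Mast cells are tissue-resident cells that arise from blood precursors, need the receptor Kit to survive and lie in skin and connective tissue. Their granules hold chymases, tryptases and carboxypeptidase A, packed on the proteoglycan serglycin together with histamine. Cma1 and Mcpt4 encode chymases, serine proteases of connective-tissue mast cells. Mpo encodes myeloperoxidase, the heme enzyme of the azurophil granules that promyelocytes make and neutrophils carry, which turns hydrogen peroxide and chloride into hypochlorous acid. In a bulk sample, fewer cells of a type and less RNA per cell cannot be told apart.

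Cma1 and Mcpt4 lie on mouse chromosome 14, in a cluster of related proteases. In the RefSeq gene order, Cma2, Mcpt1, Mcpt2 and Mcpt9 lie between them, and Mcpt8, Ctsg, Gzme and Gzmd follow Mcpt4. None of these 8 neighbours was among the genes listed here. Mpo lies on chromosome 11, with the lactoperoxidase gene Lpo as its next protein-coding neighbour and the eosinophil peroxidase gene Epx close by. Neither of these peroxidase genes was listed, while Mks1, which lies between Lpo and Epx, was. The 250 bases before each start site are shown because Cma1 and Mcpt4 lay on the same side of the comparison and Mpo on the other. The sequences are RefSeq's on GRCm38.p6, matched by symbol for 3 of 3 genes. Each is printed 5′ to 3′ on the gene's own strand, and capitals mark the motif matches described after them. The Cma1 window is chr14:55944676-55944925 on the minus strand, the Mcpt4 window chr14:56062311-56062560 on the minus strand and the Mpo window chr11:87793534-87793783 on the plus strand.
Cma1: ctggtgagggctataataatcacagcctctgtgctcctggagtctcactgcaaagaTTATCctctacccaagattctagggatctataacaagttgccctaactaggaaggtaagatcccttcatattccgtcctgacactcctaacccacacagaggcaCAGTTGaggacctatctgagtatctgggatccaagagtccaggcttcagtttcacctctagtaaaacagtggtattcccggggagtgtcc
Mcpt4: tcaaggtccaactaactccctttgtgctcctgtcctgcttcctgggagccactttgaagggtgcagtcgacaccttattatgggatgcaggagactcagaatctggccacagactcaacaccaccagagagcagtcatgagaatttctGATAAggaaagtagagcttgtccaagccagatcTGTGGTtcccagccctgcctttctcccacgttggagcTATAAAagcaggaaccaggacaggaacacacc
Mpo: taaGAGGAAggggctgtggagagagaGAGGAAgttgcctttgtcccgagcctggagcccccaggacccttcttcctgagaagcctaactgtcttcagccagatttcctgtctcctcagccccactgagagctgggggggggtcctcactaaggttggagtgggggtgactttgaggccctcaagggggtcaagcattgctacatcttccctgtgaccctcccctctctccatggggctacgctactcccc

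The cores of 4 kinds of factor were searched on both strands, and the TATA box on the gene strand. The core GATAA, read by the GATA factors that mast cells depend on, occurred at 1 place in the Cma1 window, beginning 194 bases before the start on the opposite strand, and at 1 place in the Mcpt4 window, 102 bases before it. The Mpo window held none, and 22.6% of 32851 mouse windows of this length hold at least 1. The E-box CANNTG, the kind of site that the mast cell factor Mitf binds, occurred in the Cma1 window alone of the 3 genes, 90 bases before the start (66.2% of all windows). The core GAGGAA of PU.1, a myeloid factor, occurred at 2 places in the Mpo window, 247 and 224 bases before the start, and in neither chymase window (23.3% of all windows). The RUNX core TGTGGT (14.0% of all windows) and the TATA box TATAAA (7.59% of all windows) each occurred at 1 place in the Mcpt4 window, 69 and 32 bases before the start. None of these matches overlapped another. The motifs were chosen with the windows in view, and the matches describe letters in these windows and not bound sites.

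The deposited values are decimals on a normalized scale of the authors whose unit no source used here names, so the number of reads behind a value is unknown. They summed to between 92210 and 93695 in the Noggin-deficient and to between 100792 and 102783 in the wild type libraries. Nog, which encodes Noggin, stood at 0.49, 0.42 and 0.42 in the Noggin-deficient and at 2 and 1.99 in the wild type libraries. Muscle genes were present in all 5 libraries, with summed values of 12 muscle markers from 3695 to 3857 in the Noggin-deficient and from 5518 to 5576 in the wild type. No overlap between the groups was seen for 98.2% of the listed genes, and 98.0% of the 3913 genes tested passed limma's test at an adjusted p under 0.05. The listed genes had thus been selected for a difference between these samples, so that passing the test, or not overlapping, sets no gene apart here. Log2 changes are Noggin-deficient minus wild type on the log2(value + 0.25) scale, and their median over the tested genes was -0.28. Of the calls 38.7% were higher in the Noggin-deficient samples, against 54.5% with median-of-ratios factors and 49.3% once the length trend was removed.

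Cma1 was lower in the Noggin-deficient libraries. Its values were 142.58, 136.72 and 141.78 there and 206.55 and 218.45 in the wild type libraries. The means were 140.4 ± 3.18 (SD, n = 3) and 212.5 ± 8.41 (SD, n = 2), so that the wild type mean was 1.51 times the Noggin-deficient one, a log2 change of -0.60 (SE 0.035). The groups did not overlap, with the Noggin-deficient libraries lower, which held for 57.1% of all listed genes, and the gap between them was wider than the spread within either. Of the 3913 tested genes, 18.5% had a lower log2 change than Cma1.

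Mcpt4 was lower as well, and by more. Its values were 6.97, 7.21 and 6.86 in the Noggin-deficient libraries and 12.6 and 12.39 in the wild type. The wild type mean was 1.78 times the Noggin-deficient one, with means of 12.5 ± 0.148 (SD, n = 2) and 7.01 ± 0.179 (SD, n = 3), and the log2 change was -0.81 (SE 0.038). Again no library of either group reached the other, and 10.6% of the tested genes had a lower change.

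Mpo went the other way, from a low level. Its value was 0.11 in both wild type libraries and 1.01, 1.02 and 1.07 in the Noggin-deficient ones. The Noggin-deficient mean of 1.03 ± 0.0321 (SD, n = 3) was 9.39 times that of the wild type, where both values are equal at the 2 decimals deposited. Groups without overlap and with the Noggin-deficient libraries higher made up 41.2% of all listed genes. The log2 change was 1.83 (SE 0.096), and 54 of the 3913 tested genes, or 1.38%, had a higher one. Because the wild type value is smaller than the constant added before taking logs, the size of this log2 change follows that constant: it was 2.43 with 0.1 and 0.87 with 1. Mpo passed the minimum of 0.5 in 2 libraries through its Noggin-deficient libraries, so it had to differ to be tested.

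**Figure D1:**
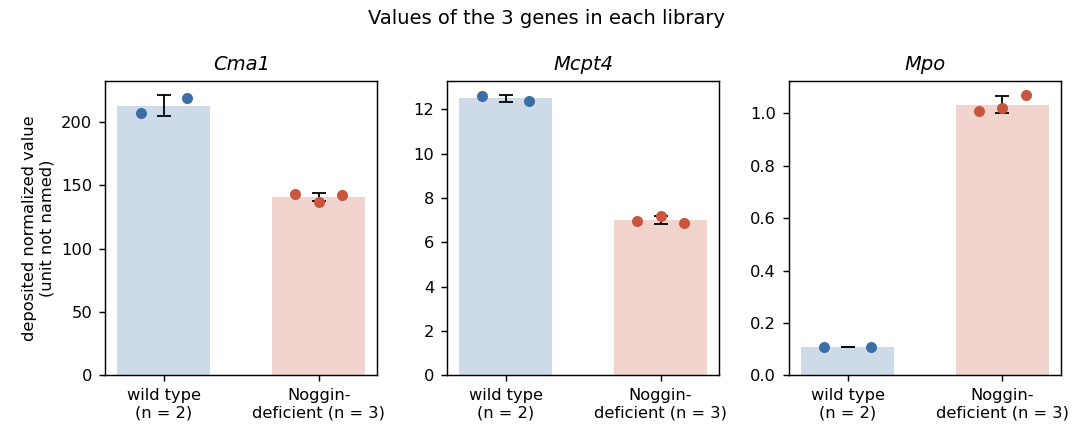
Deposited normalized values (y axis, unit not named) of Cma1, Mcpt4 and Mpo in the 2 wild type and 3 Noggin-deficient libraries, with points for libraries, bars for group means and error bars for the SD. Cma1 and Mcpt4 are lower in all Noggin-deficient libraries, and Mpo goes from 0.11 to between 1.01 and 1.07.

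The chymases moved more with the scaling between libraries than with the leaving out of any 1 library. The median-of-ratios factors were taken over the listed genes with a positive value in every library, which had already been picked for a difference. Scaling of the libraries by these factors raised the median change of all genes by 0.26. It put Cma1 at -0.32 and Mcpt4 at -0.55. After removal of the trend of change on transcript length, which raised that median by 0.28, they were at -0.88 and -1.09. Mpo was at 1.97 and 1.89 under the same settings. The direction of each gene was the same in every setting that was run.

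**Figure D2:**
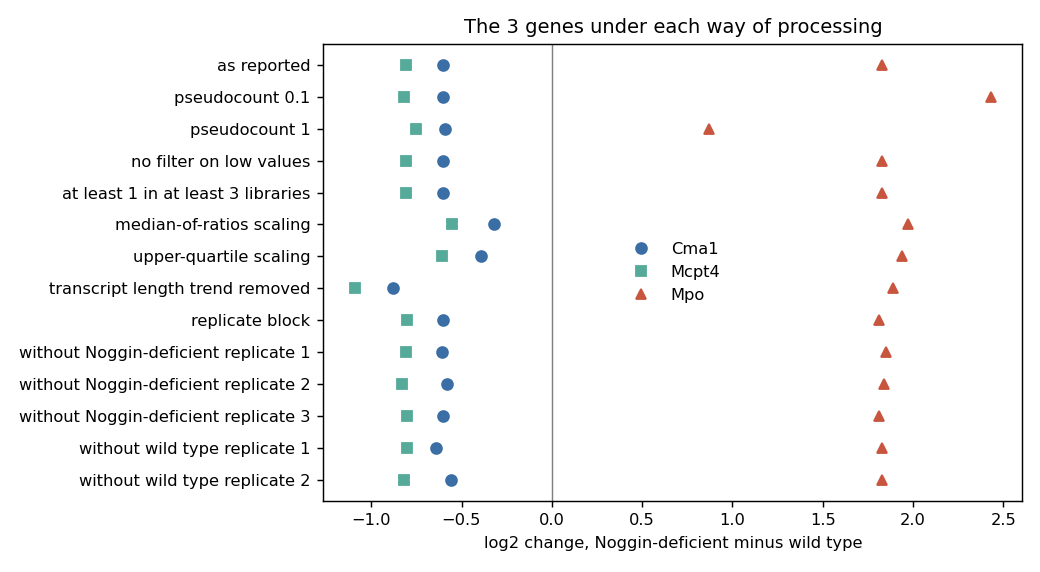
Log2 change (x axis) of Cma1 (circles), Mcpt4 (squares) and Mpo (triangles) under each way of processing (rows). Both chymases stay below 0 and Mpo above 0 in every row, with Mpo from 0.87 to 2.43 as the added constant changes.

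The 2 chymases can be compared within a library without any scaling between libraries, and their longest annotated transcripts are of nearly the same length, 1090 bases for Cma1 and 1108 for Mcpt4. The value of Mcpt4 divided by that of Cma1 was 0.0489, 0.0527 and 0.0484 in the Noggin-deficient libraries and 0.0610 and 0.0567 in the wild type. Cma1 was thus the more abundant chymase in every library, and the ratio was lower in each Noggin-deficient library, by 0.24 on the log2 scale. Of the 50-base windows of the transcripts, 5.38% in Cma1 (with the predicted gene Gm48934) and 5.48% in Mcpt4 (with Cma2 and Mcpt9) also occur in another gene, so a small share of reads could be assigned either way. The Mpo transcript of 2750 bases shared none.

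The other proteases of the mast cell granule were lower too. Of 10 further genes on the protease list 3 had values, and these 3 fell, where 60.1% of all tested genes were called lower. Cpa3, the carboxypeptidase of mast cell granules, was at 127.72, 128.07 and 127.12 in the Noggin-deficient and at 188.27 and 197.69 in the wild type libraries (log2 change -0.60, limma adjusted p = 1.8e-06). Tpsb2, a tryptase, was at 85.79, 86.81 and 81.41 against 148.81 and 147.24 (log2 change -0.80, limma adjusted p = 9e-07). Tpsab1, the other tryptase, had low values, at 0.38, 0.53 and 0.40 against 0.66 and 0.62. It reached the minimum for testing only with the wild type libraries, and its log2 change of -0.38 (adjusted p = 0.019) no longer passed under median-of-ratios scaling (-0.19, adjusted p = 0.22) or without wild type replicate 1 (adjusted p = 0.11) or 2 (adjusted p = 0.064). Neither tryptase transcript shared a 50-base window with another gene.

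Mast cell receptors and mediators were mostly lower. Of 22 such genes 10 had values and 8 were tested. Of these, 7 fell and 1, Gata1, rose, where 60.1% of all tested genes were called lower. Among the 7, Cd200r3 reached the minimum for testing only with the wild type libraries. The median log2 change of the 8 tested genes was -0.43, beside -0.28 for all tested genes. Hdc, the enzyme that makes histamine, was at 29.86, 30.49 and 28.15 in the Noggin-deficient and at 53.01 and 51.92 in the wild type libraries (log2 change -0.83, adjusted p = 1.3e-06). Il1rl1, the receptor of the alarmin that Il33 encodes, fell by 0.85 and Rab27b, a GTPase of granule release, by 0.88 on the log2 scale. Ms4a2, the beta chain of the high-affinity IgE receptor, fell by 0.49, from 1.07 in both wild type libraries to between 0.66 and 0.74. Cd200r3, an activating receptor of mast cells and basophils, fell by 0.37 (adjusted p = 0.013, but 0.19 under median-of-ratios scaling and 0.12 without wild type replicate 2).

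Kit and Srgn had changes nearer to 0. Kit, the receptor of stem cell factor, had values of 7.52, 7.60 and 7.86 against 9.59 and 9.88, a log2 change of -0.34 (adjusted p = 0.00011). Srgn, of serglycin, had values of 21.26, 22.33 and 21.78 against 27.21 and 26.57, a log2 change of -0.30 (adjusted p = 7.2e-05). Under median-of-ratios scaling they were at -0.07 (adjusted p = 0.15) and -0.03 (adjusted p = 0.46), and after removal of the length trend Kit was at -0.03 (adjusted p = 0.50). Both genes are also expressed outside mast cells, Kit in melanocyte precursors and Srgn in many blood and endothelial cells.

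Gata1, a factor of mast cells and also of red cell precursors and megakaryocytes, rose from 1.07 and 1.02 to 1.39, 1.72 and 1.53, a log2 change of 0.47 (adjusted p = 0.0022). Red cell genes were higher in the same libraries: 8 of 18 on the list had values and all 8 rose, where 37.9% of all tested genes were called higher. Of the 8, Rhag reached the minimum for testing only through the Noggin-deficient libraries and so had to be higher to be tested. The summed values of the 8 were 224.8 to 231.1 in the Noggin-deficient and 97.35 to 101.0 in the wild type libraries. The part of red cell RNA in the value of Gata1 was not tested. Tph1, an enzyme of serotonin synthesis, and Adora3, an adenosine receptor, were too low to be tested, and their values were lower in all Noggin-deficient libraries (at most 0.21 against at least 0.36 for Tph1, and at most 0.36 against at least 0.44 for Adora3).

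Over both mast cell lists without the chymases themselves, 10 of 11 tested genes were called lower and 1 higher, where 60.1% of all tested genes were called lower. Of the 10, Tpsab1 and Cd200r3 reached the minimum for testing only with the wild type libraries, where they are high. The median of their log2 changes was -0.49, beside -0.28 for all tested genes. Under median-of-ratios scaling the same 10 lay below 0, but 6 of them passed, with a median of -0.27 beside -0.03 for all genes. With that scaling 2764 of all 3903 tested genes were called, and 54.5% of these calls were higher. Of the 32 genes on these lists 19 were not analysed here.

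**Figure D3:**
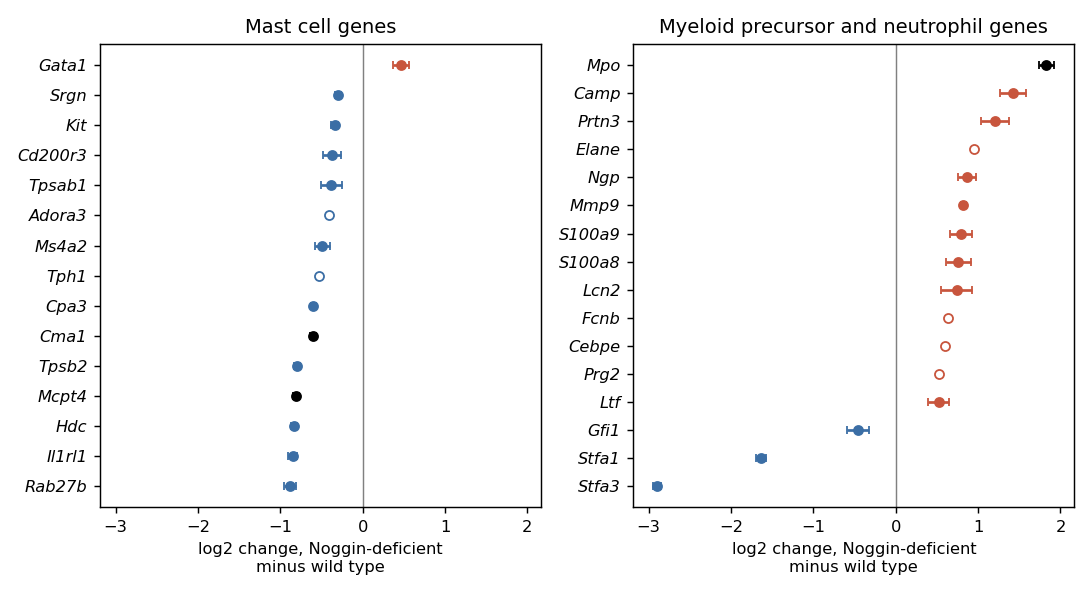
Log2 change (x axis) of mast cell genes (left) and of myeloid precursor and neutrophil genes (right), with error bars for the SE, open circles for genes below the minimum for testing, and Cma1, Mcpt4 and Mpo in black. All mast cell genes shown but Gata1 lie below 0, and all myeloid genes shown but Gfi1, Stfa1 and Stfa3 lie above 0.

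Relative to one another within each library, the mast cell genes separated into groups. The pairs were chosen after the values had been seen and are described without a test. Cma1 divided by Cpa3 was 1.12, 1.07 and 1.12 in the Noggin-deficient and 1.10 and 1.11 in the wild type libraries, ranges that overlapped, so these genes differed between genotypes by nearly the same factor. Mcpt4 divided by Cpa3 was 0.0546, 0.0563 and 0.0540 against 0.0669 and 0.0627. The log2 change of the ratio to Cpa3 was -0.24 for Mcpt4, -0.21 for Tpsb2, -0.24 for Hdc and -0.32 for Il1rl1, with no overlap between the groups. For Kit and Srgn the ratio to Cpa3 was higher in the Noggin-deficient libraries, by 0.25 and 0.29, again without overlap. These ratios do not depend on the scaling between libraries, but they do depend on transcript length. After removal of the length trend Cpa3 was at -0.79, Cma1 at -0.88, Mcpt4 at -1.09 and Tpsb2 at -1.03, so that Mcpt4 and Tpsb2 were still lower than Cpa3. Hdc at -0.58 and Il1rl1 at -0.54, whose annotated transcripts are longer, were then less reduced than Cpa3, and Kit at -0.03 and Srgn at -0.47 remained so.

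**Figure D4:**
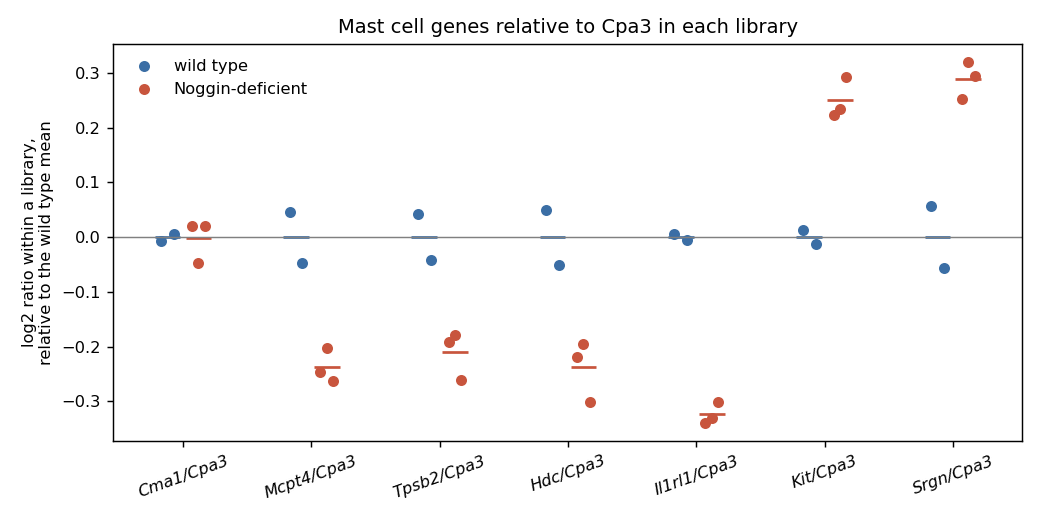
Log2 of the value of each mast cell gene divided by that of Cpa3 in the same library, relative to the wild type mean (y axis), with points for libraries and short lines for group means. Cma1 stays level with Cpa3, Mcpt4, Tpsb2, Hdc and Il1rl1 have changes of -0.32 to -0.21, and Kit and Srgn of 0.25 and 0.29; for Hdc and Il1rl1 the order against Cpa3 turned after removal of the length trend.

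Genes of the epidermis and of muscle were lower in the same libraries as the chymases. Of 20 epidermis genes 18 had values and 17 were tested, and all 17 fell (median -1.31), where 60.1% of all tested genes were called lower. The summed values of the 18 were 1404 to 1462 in the Noggin-deficient and 3329 to 3339 in the wild type libraries, with no marker listed at 0. Hrnr and Lor, of the cornified layer, had log2 changes of -3.95 and -2.89. Beside the same 60.1%, 11 of 12 tested muscle genes fell and 1 rose (median -0.56), with -1.08 for Ckm, the muscle creatine kinase, and -0.94 for Mybpc1, a myosin-binding protein. Cma1 divided by the keratin gene Krt10 was 0.490 ± 0.0154 (SD, n = 3) in the Noggin-deficient and 0.248 ± 0.00969 (SD, n = 2) in the wild type libraries, so Cma1 was less reduced than Krt10. Divided by the skeletal actin gene Acta1 it was 0.0874 ± 0.00305 (SD, n = 3) and 0.0906 ± 0.00299 (SD, n = 2), with overlapping libraries. The part of the share of skin in the dissected tissue was not tested.

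Few signals that feed or attract mast cells were listed. Of 10 such genes 2 had values, and both rose, where 37.9% of all tested genes were called higher. Cxcl12, a chemokine, was at 25.05, 25.39 and 24.9 in the Noggin-deficient and at 17.7 and 18.01 in the wild type libraries (log2 change 0.49, adjusted p = 3.7e-06). Ccl2, another chemokine, was at 3.10, 2.63 and 3.26 against 1.96 and 1.88 (log2 change 0.58, adjusted p = 0.00058). Kitl, which encodes the ligand of Kit, and Il33 were not analysed here.

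Chymases cut angiotensin I and several matrix proteins. Of 9 genes for proteins reported as chymase substrates 4 had values, of which 2 rose and 2 fell. Of all tested genes 37.9% were called higher and 60.1% lower. Agt, of angiotensinogen, had a log2 change of -0.45 and Edn1, of endothelin 1, one of 0.56. Fn1, of fibronectin, had one of -0.27, which came to 0.00 under median-of-ratios scaling and to 0.11 once the length trend was removed. Mmp9, a gelatinase of neutrophils and osteoclasts whose proform chymase cleaves, rose by 0.82, from 13.05 and 13.17 to 23.48, 22.93 and 23.7.

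Inhibitors of granule proteases went both ways. Of 13 listed, 5 had values, of which 4 were called higher and 1 lower. Of all tested genes 37.9% were called higher and 60.1% lower. Serpina1a and Serpina1b, of the alpha-1-antitrypsin family made by liver, were listed at 0 in both wild type libraries and at 2.51 to 2.72 and 4.69 to 5.12 in the Noggin-deficient ones. The alpha-macroglobulin genes A2m and Pzp had log2 changes of 0.68 and 1.41. Serpina1a, Serpina1b and Pzp reached the minimum for testing only through the Noggin-deficient libraries. Serpinb1a, an intracellular inhibitor of neutrophil proteases, had a log2 change of -0.65.

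Most granule genes of myeloid precursors and neutrophils that had values were higher along with Mpo, but their summed values were lower. Of 26 further genes on that list 15 had values and 11 were tested, of which 8 were called higher and 3 lower, where 37.9% of all tested genes were called higher. Of these 8, Prtn3, Camp and Ltf reached the minimum for testing only through the Noggin-deficient libraries and so had to be higher to be tested, and the count is in that part set by the filter. Without that filter, 12 of the 15 genes with values were higher and 3 lower. All 15 were without overlap between the groups, which held for 98.2% of all listed genes. For 41.2% of all listed genes the Noggin-deficient libraries were higher without overlap. The summed values of the 15 were 59.71 to 61.16 in the Noggin-deficient and 104.2 to 106.5 in the wild type libraries, where Stfa3 and Stfa1 had the largest values. Among azurophil granule genes, Prtn3, of proteinase 3, was at 0.93, 0.83 and 1.3 in the Noggin-deficient and at 0.35 and 0.24 in the wild type libraries (3.46-fold, log2 change 1.21). Elane, of neutrophil elastase, was at 0.25, 0.47 and 0.27 against 0.10 and a value listed at 0, too low to be tested. All 3 of these azurophil genes were thus higher in every Noggin-deficient library.

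Genes of the later, specific granules and several other genes on the myeloid list were higher as well. Camp, of cathelicidin, was at 1.17, 0.99 and 1.25 in the Noggin-deficient and at 0.36 and 0.19 in the wild type libraries (4.13-fold, log2 change 1.42), and Ltf, of lactoferrin, at 0.70, 0.56 and 0.72 against 0.34 and 0.43. Ngp, of neutrophilic granule protein, rose by 0.86 and Lcn2, of lipocalin 2, by 0.74 on the log2 scale. The calgranulin genes S100a8 and S100a9 rose by 0.76 and 0.79. Without wild type replicate 2 these were 0.48 and 1.04, and without wild type replicate 1 they were 1.04 and 0.55. Once the length trend was removed, S100a8 was at 0.22 (adjusted p = 0.22) and S100a9 at 0.27 (adjusted p = 0.076), and neither passed. Fcnb, of a ficolin made by myeloid precursors, Cebpe, a factor of granulocyte maturation, and Prg2, of eosinophil major basic protein, were below the minimum for testing and higher in all Noggin-deficient libraries.

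The 3 myeloid genes that fell were Stfa3 (-2.90), Stfa1 (-1.64) and Gfi1 (-0.46). The stefin A genes Stfa1 and Stfa3 encode protease inhibitors that are made in neutrophils and in epidermis, and S100a8, S100a9 and Lcn2 can also be made by keratinocytes. Gfi1 is a repressor needed for neutrophil formation. It no longer passed under median-of-ratios scaling (-0.26, adjusted p = 0.11) or without wild type replicate 2 (adjusted p = 0.072).

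Mpo differed by more than Prtn3 and Ngp within each library. Mpo divided by Prtn3 was 1.09, 1.23 and 0.823 in the Noggin-deficient and 0.314 and 0.458 in the wild type libraries, and Mpo divided by Ngp was 0.430, 0.545 and 0.585 against 0.111 in both. No library of either group overlapped the other for these ratios, which were chosen after the values had been seen and rest on low values of unknown depth.

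Liver and red cell transcripts were higher in the same libraries as Mpo. All 16 genes on the liver list had values and were higher in every Noggin-deficient library, which held for 41.2% of all listed genes. Of the 15 tested, 13 reached the minimum for testing only through the Noggin-deficient libraries. The summed values of the 16 were 130.1 to 131.7 against 9.12 to 9.23 in the wild type, where 3 of the 16 were listed at 0 in both libraries. Alb, of albumin, and Afp, of alpha-fetoprotein, had log2 changes of 5.98 and 5.28, and the embryonic globin gene Hbb-y and the red cell factor Klf1 of 1.42 and 1.31. Mpo divided by Alb was 0.0251, 0.0260 and 0.0274 in the Noggin-deficient and 0.282 and 0.297 in the wild type libraries, and Mpo divided by Hbb-y was 0.00684, 0.00743 and 0.00748 against 0.00217 and 0.00197. Mpo thus differed between the genotypes by less than Alb and by more than Hbb-y. The fetal liver forms blood cells at this stage, and the part of liver or blood RNA in the value of Mpo was not tested.

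The relatives and partners of myeloperoxidase went both ways. Of 8 other heme peroxidase genes 2 had values. Ptgs1, a cyclooxygenase also found in mast cells and platelets, fell from 7.06 and 6.93 to 4.80, 4.38 and 3.73 (log2 change -0.68, adjusted p = 0.00026). Duox1, an oxidase of epithelia, was at 0.46, 0.44 and 0.57 against 0.71 and 0.64, a log2 change of -0.33 that was -0.13 with median-of-ratios factors, -0.18 with upper-quartile factors and -0.02 without the length trend. It reached the minimum for testing only with the wild type libraries. Among subunits of the phagocyte NADPH oxidase, which supplies the peroxide that myeloperoxidase uses, Ncf4 rose by 0.52. Ncf1 had a log2 change of -0.33 (adjusted p = 0.002) and of -0.07 under median-of-ratios scaling (adjusted p = 0.37).

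The genes whose pattern over the 5 libraries lay nearest to each of the 3 were sought by the root mean square difference of centred log2 values, among 3602 genes. For Cma1 they were Emb, Sptb and Filip1, at 0.0094, 0.014 and 0.022, with Cpa3 next at 0.024. For Mcpt4 they were Itih5, Arhgap36 and Usp2, at 0.010, 0.011 and 0.017, with Tpsb2 next at 0.017 and Hdc at rank 9. For Mpo they were Pcsk1n, Stmn2 and Msx1, at 0.034, 0.073 and 0.078, with Camp at rank 31 and Prtn3 at rank 59. With 2 groups, this measure mostly ranks genes by the size of their difference between the genotypes.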

How the data were processed

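Messenger RNA of forelimb muscle tissue was sequenced from stranded libraries, per the labels' protocols. STAR 2.4.2a, DESeq2 and the build mm9 appear in the submitters' processing notes, which state no role for them. Not given in the sources used here are the steps of counting and normalization. The deposited tables hold a non-negative expression signal normalized by the authors, 1 value per gene and sample, for 4743 genes already picked for differing between the groups, by a rule no source states. Depth is unknown, so no counting interval was given. Samples were grouped by the genotype label.

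The test was that of limma 3.58.1, run in R 4.3.3 (moderated test with an intensity trend, no covariate) on log2(value + 0.25), over the 3913 genes with at least 0.5 in at least 2 libraries, with Benjamini-Hochberg adjustment over all of them. The code was tested on simulated data. The planned count model was not used, because the files hold no counts. The genes and gene lists were chosen with earlier results of these data known. Named were the 3 genes and Nog, every gene with values in the mast cell, mast cell signal, chymase locus, myeloid, peroxidase, oxidase, substrate, inhibitor and angiotensin lists, the 2 largest changes of each other list, and the 3 nearest patterns to each gene. Of the oxidase and angiotensin lists, part is not reported here. Other examples were chosen after their values were seen. Transcript lengths came from GENCODE M21 for 94.1% of the listed genes and promoters from RefSeq. Motifs were chosen with the windows in view. Alternatives changed the pseudocount, the filter, the scaling, the length trend, the threshold, the replicate block and the libraries included.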

Additional observations from a re-analysis of the deposited data

How the results depend on the processing

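Of 3913 tested genes 3836 were called, and 569 against a 1.5-fold change. Under median-of-ratios scaling 2764 of 3903 were called, and 3225 of 3253 with a minimum of 1 in at least 3 libraries. Of the 11 tested mast cell genes without the chymases 11 were called, 7 under median-of-ratios scaling and 4 against a 1.5-fold change. Of the 11 tested myeloid granule genes without Mpo 11 were called, and 5 against a 1.5-fold change. With a minimum of 1 in at least 3 libraries 7 of them were tested and 7 called. The log2 change of Cma1 (-0.60) was -0.32 with median-of-ratios factors, -0.39 with upper-quartile factors, which raised the median of all genes by 0.19, and -0.88 after removal of the length trend. That of Mcpt4 (-0.81) was -0.55, -0.61 and -1.09 under these settings and -0.75 with a pseudocount of 1. That of Mpo (1.83) was 1.97, 1.94 and 1.89, and 2.43 and 0.87 with pseudocounts of 0.1 and 1. The change of Fn1 turned from -0.27 to 0.00 (median-of-ratios scaling) and 0.11 (length trend removed), and no other gene run under these alternatives turned its sign. Genes below the minimum for testing, the nearest-pattern genes, Spi1, Krt10 and Acta1 were not run. The cause was not tested.

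Leaving out 1 library at a time gave -0.64 to -0.56 for Cma1, -0.83 to -0.80 for Mcpt4 and 1.81 to 1.85 for Mpo. Where 1 wild type library was left, it was assumed to vary like the Noggin-deficient ones. The groups share replicate numbers 1 and 2 with no stated pairing, and deviations of same-numbered libraries correlated at -0.13 and -0.06. With the replicate block the values were -0.60, -0.80 and 1.81, with 3772 genes called, 10 mast cell and 11 myeloid genes among them, and Tpsab1 no longer passed (adjusted p = 0.053). The unknown depth limits the low values most, those of Mpo in the wild type, Elane and Tpsab1 among them.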

Other observations

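Other blood cell genes did not move as 1 group. Of 24 macrophage and general leukocyte genes 5 had values, of which 4 rose and 1 fell, where 37.9% of all tested genes were called higher. Cd68, a lysosomal protein of macrophages, was at 14.5, 14.77 and 14.68 in the Noggin-deficient and at 10.07 and 10.48 in the wild type libraries, a log2 change of 0.50 (limma adjusted p = 7.8e-06). Spi1, the gene of PU.1, went from 6.84 and 7.39 to 10.2, 10.09 and 9.95, a log2 change of 0.49. Cd163, a haemoglobin scavenger receptor of resident macrophages, had values of 0.91 and 0.73 in the wild type and of 0.45, 0.42 and 0.51 in the Noggin-deficient libraries, a log2 change of -0.59, and it reached the minimum for testing only with the wild type libraries.

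Of 10 genes of blood progenitors 3 had values. The 2 that were tested, Cd34 and Myb, fell with log2 changes of -0.36 each, where 60.1% of all tested genes were called lower. Cd34 is also an endothelial gene. Under median-of-ratios scaling Cd34 was at -0.09 and Myb at -0.13, and Myb no longer passed (limma adjusted p = 0.29). Gfi1b, a factor of red cell and platelet precursors that was too low to be tested, was at 0.36, 0.27 and 0.27 against 0.09 and 0.02. The 2 platelet genes with values, Gp1ba and Itgb3, fell with log2 changes of -0.41 and -0.38, beside the same 60.1%. Neither passed under median-of-ratios scaling, at -0.21 and -0.12 (limma adjusted p = 0.18 and 0.056). After removal of the length trend they were at -0.37 and -0.05. Without wild type replicate 1 or 2 Gp1ba was at -0.42 and -0.41. Gzmb, of granzyme B, which lies in the same protease cluster as the chymases, was too low to be tested and was at 0.20, 0.34 and 0.25 in the Noggin-deficient and at 0.05 and 0.14 in the wild type libraries.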
